A study of Mus musculus with 18 samples.

Results

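Translation efficiency, the footprint level of a gene set against its RNA level, was compared between HrasG12V epidermis that received an shRNA against Eif2b5 and HrasG12V epidermis that received a scrambled shRNA. The comparison rests on 12 of the 18 libraries of the series: 3 footprint and 3 RNA libraries of HrasG12V shEif2b5, and 3 footprint and 3 RNA libraries of HrasG12V shScram. The members were chosen by these labels alone, and all 10793 genes with enough counts in both kinds of library were tested. Both groups were mouse embryos of strain FR-HrasG12V, transduced by injection in utero at E9.5 and collected as embryos at E18.5, so both carried the HrasG12V allele and an shRNA vector. A further 3 footprint and 3 RNA libraries of WT shScram embryos, of a ROSA26 reporter strain that carries tdTomato and EGFP, entered the fit to share the estimate of spread and are quoted last where their levels help. One WT footprint library carries the genotype label Rosa26 in place of WT. No WT shEif2b5 group was among the samples. The tissue was treated with cycloheximide, the epidermis was separated from the dermis, and the labels describe the cells as epidermal basal cells. No label names the promoter or cell type that drives HrasG12V, gives the share of transduced cells, or ties a library to its own embryo. A p-value here therefore speaks of the spread from library to library, which may be technical.

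Eif2b5 encodes the catalytic epsilon subunit of eIF2B, the guanine nucleotide exchange factor that recharges eIF2 with GTP so that it can deliver the initiator tRNA to the ribosome. When eIF2B activity is limiting, initiation slows on most mRNAs, while some mRNAs with upstream open reading frames, Atf4 among them, are known to be translated better. Ribosome profiling sequences the mRNA stretches protected by ribosomes, and a footprint difference that departs from the RNA difference is read as a change in translation efficiency. Values of each kind are relative to all other genes of that kind, so a change of all genes together could not be seen.

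Translation efficiency differed for few genes, and for nearly all of them it was the RNA level, not the footprint level, that separated the groups. In HrasG12V shEif2b5 against HrasG12V shScram, 195 genes were called higher (1.81% of those tested) and 34 lower (0.315%), so 229 were called in all (2.12%, edgeR quasi-likelihood test of the interaction, Benjamini-Hochberg adjusted p under 0.05). A difference over 2-fold was fitted for 129 of the 229, and 2057 genes had an unadjusted p under 0.05. Among footprints alone, 0 of 11448 genes were called (0%), with 520 at an unadjusted p under 0.05; DESeq2 called 1 gene and limma voom 0. That gene was Fn1, the matrix protein fibronectin, with footprints of 671, 925 and 993 CPM in HrasG12V shEif2b5 and 418, 469 and 523 CPM in HrasG12V shScram (log2 difference 0.88 ± 0.14, SE, adjusted p = 0.0934 with edgeR), and a translation efficiency difference of 0.31 (adjusted p = 0.479). Among RNA libraries alone, 1442 of 11096 genes were called (13%), 581 higher (5.24%) and 861 lower (7.76%). Across the 10793 genes, the SD of the log2 difference was 0.25 for footprints, 0.48 for RNA and 0.49 for translation efficiency.

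Split into its parts, the median gene called higher had a log2 difference of 1.02 in translation efficiency, 0.00 in footprints and -1.04 in RNA. The median gene called lower had -1.10 in translation efficiency, -0.21 in footprints and 0.86 in RNA. Over all tested genes the medians were 0.03, 0.00 and -0.01. Of the 229 genes, 219 (95.6%) were also called in RNA, each in the direction opposite to its translation efficiency, and 17 had an unadjusted footprint p under 0.05. The footprint libraries of the 2 groups overlapped for 193 of the 229, while the RNA libraries did not overlap for 223; over all tested genes RNA libraries were separate and higher for 13.4% and separate and lower for 15.6%, and footprint libraries for 5.68% and 5.51%. These counts describe genes that were picked by the ratio of both quantities, so they are not a separate test.

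**Figure D1:**
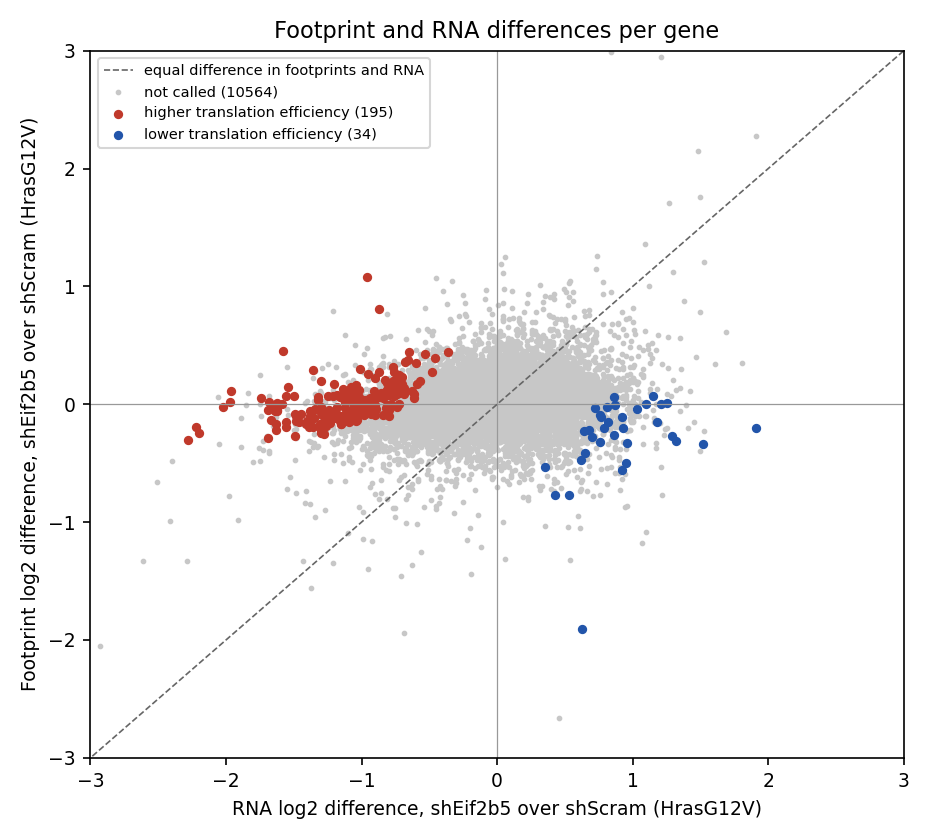
RNA log2 difference (x axis) and footprint log2 difference (y axis), HrasG12V shEif2b5 over HrasG12V shScram, for each tested gene; 2 genes fall outside the plotted range of 3 log2 units either side. The 195 genes higher in translation efficiency lie left of 0 in RNA and, for the most part, close to 0 in footprints, the 34 lower ones lie right of 0 in RNA, and the dashed line marks equal differences.

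The RNA libraries of HrasG12V shScram were uneven, which bears on every value that follows. On the leading principal component of the RNA libraries (37.9% of variance), HrasG12V shScram libraries 1 and 3 sat at 40.8 and 40.3 and library 2 at 1.3, while HrasG12V shEif2b5 libraries sat at -17.5, -9.4 and -26.8 and WT shScram libraries at -11.8, -13.9 and -3.0. Libraries 1 and 3 of HrasG12V shScram were also the deepest RNA libraries of the comparison, with 5214473 and 4310239 counts, against 1771365 in library 2 and 2209327 to 2812627 in the HrasG12V shEif2b5 libraries. The deepest RNA library of the series, WT shScram library 3 with 5505386 counts, sat at -3.0 on that component. Footprint libraries held 4793575 to 4933298 counts in HrasG12V shEif2b5 and 3641185 to 4579407 in HrasG12V shScram. HrasG12V shScram RNA library 2 lay nearer the HrasG12V shEif2b5 mean than the mean of libraries 1 and 3 in 56 of the 229 called genes (24.5%). In 173 of the 229, 146 higher and 27 lower, it was the library of its group nearest the HrasG12V shEif2b5 side. With counts thinned to the smallest library of each kind, a step added after seeing the data, 122 genes were called. When libraries 1 and 3 were left out, the fit called 2 genes (0.0182% of 10984 tested), and 1 of the 229. The sign stayed for 229 of 229, in a fit that still held library 2 and the same footprints. These genes were picked by the same contrast, and the RNA groups did not overlap for 223. The sign was thus largely set beforehand and is not a separate test. The median of the genes called higher was then 0.75 and of those called lower -0.87.

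The 5 genes that were called in each of the 12 fits that left out 1 library were Lamp2, Pex13, Stfa3, Csnk2b and Mtx2, of which Csnk2b and Mtx2 are named after their values were seen. Lamp2 (chromosome X, 38401357 to 38456454, minus strand, mm10) encodes a lysosomal membrane protein needed for chaperone-mediated autophagy and for fusion of autophagosomes with lysosomes. Its RNA stood at 45.8, 47.0 and 36.1 CPM (counts scaled to library size) in HrasG12V shEif2b5, against 156, 96.3 and 161 CPM in HrasG12V shScram, with 73.4, 64.3 and 72.1 CPM in WT shScram. Footprints of the gene were at 432, 417 and 423 CPM in HrasG12V shEif2b5, against 443, 469 and 405 CPM in HrasG12V shScram. The RNA groups were far apart and the footprint groups overlapped, so that translation efficiency was higher by 1.63 ± 0.22 on the log2 scale (SE, adjusted p = 0.000758, edgeR; at most 0.00867 with any 1 library left out). Without HrasG12V shScram RNA libraries 1 and 3 the value was 1.10 (adjusted p = 0.123).

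Pex13 (chromosome 11, 23646479 to 23665959, minus strand) encodes a peroxisomal membrane protein of the matrix protein import machinery. Its RNA stood at 9.6, 14.8 and 13.1 CPM in HrasG12V shEif2b5 and at 44, 28.8 and 38.3 CPM in HrasG12V shScram. Footprints of Pex13 were at 56.2, 56.3 and 50.6 CPM in HrasG12V shEif2b5 and 53.2, 62.2 and 48.8 CPM in HrasG12V shScram. Footprints overlapped fully, and translation efficiency was higher by 1.58 ± 0.26 (log2, SE, adjusted p = 0.0103, edgeR). Mtx2, a subunit of the mitochondrial outer membrane sorting machinery, had 17.7, 19.8 and 20.1 CPM of RNA in HrasG12V shEif2b5, against 49.5, 40.4 and 50.1 CPM in HrasG12V shScram, with footprint means of 80.3 ± 6.15 and 85.4 ± 7.23 CPM (SD, n = 3 each). Csnk2b, the regulatory subunit of casein kinase 2, had 58.3, 68.6 and 56.7 CPM of RNA in HrasG12V shEif2b5, against 137, 101 and 132 CPM in HrasG12V shScram, with footprint means of 398 ± 6.11 and 381 ± 23.8 CPM. The translation efficiency of Mtx2 was higher by 1.20 and that of Csnk2b by 1.08 on the log2 scale.

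Stfa3, a stefin A cysteine protease inhibitor of the epidermis, was the most abundant gene of the 5. Its RNA stood at 815, 1090 and 757 CPM in HrasG12V shEif2b5, against 3480, 2270 and 2850 CPM in HrasG12V shScram, with 1030, 1120 and 942 CPM in WT shScram. Footprints of Stfa3 were at 6380, 7810 and 7580 CPM in HrasG12V shEif2b5, against 9330, 9630 and 7610 CPM in HrasG12V shScram, with 5560, 5200 and 4970 CPM in WT shScram. Both RNA and footprints were thus on average lower in HrasG12V shEif2b5, RNA by -1.69 and footprints by -0.29 on the log2 scale, and translation efficiency was higher by 1.40 ± 0.24 (SE, adjusted p = 0.0103, edgeR). Stfa3 has near-identical neighbours in its family, and how reads were shared among them is not given in the sources used here.

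**Figure D2:**
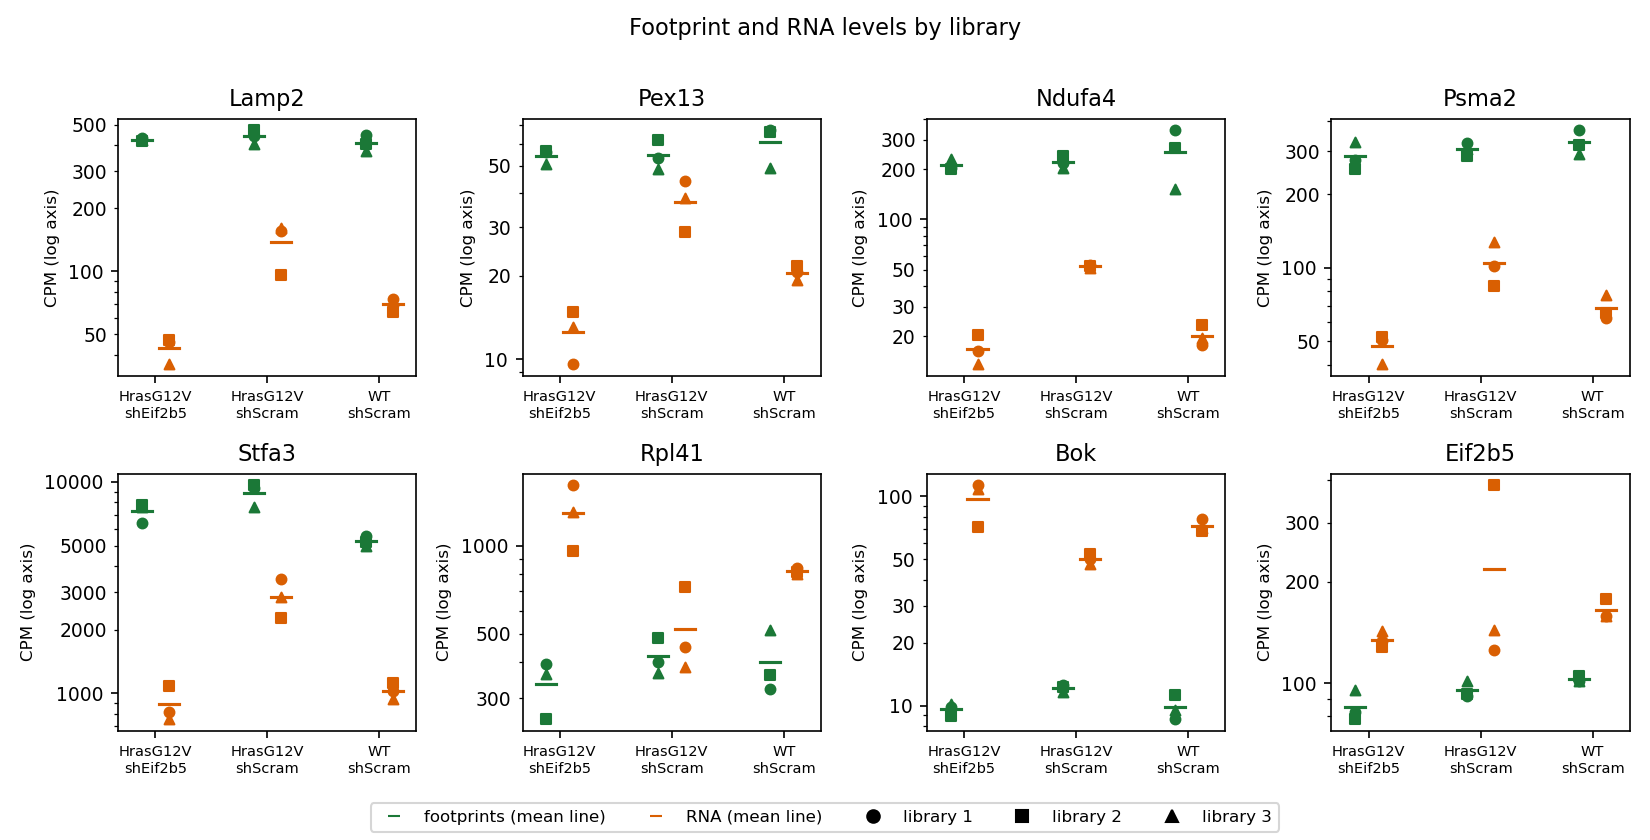
CPM on a log axis of 8 genes in footprint (green) and RNA (orange) libraries of HrasG12V shEif2b5, HrasG12V shScram and WT shScram; symbols mark libraries 1 to 3 and lines the means. For Lamp2, Pex13, Ndufa4 and Psma2 the orange HrasG12V shScram points stand above both other groups while the green points overlap. For Stfa3 the orange HrasG12V shScram points stand above too, and the green ones also lie above those of WT shScram. For Rpl41 and Bok the orange HrasG12V shScram points stand below both other groups. For Eif2b5 a single HrasG12V shScram RNA library stands at 387 CPM.

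Of the 10 named genes with the highest values, Hist1h4j, a replication-dependent histone H4 gene, led with 2.03 ± 0.42 (log2, SE, adjusted p = 0.0237, edgeR), but its sequence is nearly the same as that of other H4 genes and its counts are uncertain. Tspan6, a tetraspanin, followed with 1.78, Cfap20, a cilia and flagella associated protein, with 1.70, and Ormdl2, a regulator of sphingolipid synthesis, with 1.69. Lage3, a subunit of the KEOPS complex that modifies tRNA, stood at 1.68, Immp1l, a subunit of the mitochondrial inner membrane peptidase, at 1.66, Nup35, a nuclear pore subunit, at 1.64, and Ndrg3, an NDRG family member, at 1.63. Ormdl2 had RNA of 5.91, 9.90 and 5.62 CPM in HrasG12V shEif2b5 against 24.4, 22.7 and 22.6 CPM in HrasG12V shScram. At the same time its footprints were 38.6, 37.4 and 35.5 CPM in HrasG12V shEif2b5 and 38.9, 39.8 and 31.5 CPM in HrasG12V shScram, so all 3 HrasG12V shScram RNA libraries lay together here. Cfap20 and Immp1l differed from this. For Immp1l the RNA stood at 6.64, 9.55 and 6.56 CPM in HrasG12V shEif2b5 and at 29.3, 9.41 and 30.5 CPM in HrasG12V shScram, so that library 2 lay among the HrasG12V shEif2b5 libraries, and without libraries 1 and 3 its translation efficiency difference was 0.29 (adjusted p = 0.916).

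Lage3 was the 1 gene of those 10 with a higher footprint level at an unadjusted p under 0.05. Footprints of Lage3 were 13.9, 14.7 and 12.7 CPM in HrasG12V shEif2b5 and 7.34, 6.82 and 9.17 CPM in HrasG12V shScram, and its RNA at 11.4, 13.1 and 13.6 CPM in HrasG12V shEif2b5 and 24.4, 28.2 and 18.3 CPM in HrasG12V shScram. Neither pair of groups overlapped, and both moved toward higher translation efficiency. In WT shScram the footprints of Lage3 were uneven, at 18.9, 18.3 and 7 CPM. Counts behind such values can be small: Nup35 had 16, 16 and 12 RNA reads in HrasG12V shEif2b5, against 109, 21 and 88 in HrasG12V shScram. The mean RNA count in the group with fewer reads was under 20 for 24 of the 229 called genes and under 50 for 85.

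Among the genes called in at least 10 of the 12 fits that left out 1 library, 20 were higher and 1 was lower. Besides those above they include 5 that are named here after their values were seen. Rab9, a small GTPase of transport from late endosomes to the Golgi, had 9.23, 12.7 and 5.15 CPM of RNA in HrasG12V shEif2b5 and 28.7, 21.6 and 26.9 CPM in HrasG12V shScram. Fxyd3, a regulator of the sodium pump, had 32.1, 31.5 and 27.6 CPM of RNA in HrasG12V shEif2b5 and 92.5, 83.0 and 80.4 CPM in HrasG12V shScram. Their translation efficiency was higher by 1.56 and 1.40 on the log2 scale, with footprint differences of 0.07 and -0.08. Emp1, an epithelial membrane protein, was higher by 1.14, Nck1, an SH2 and SH3 domain adaptor, by 1.37, and Elavl1, an RNA-binding protein that binds AU-rich elements, by 0.94, with footprint differences of -0.08, -0.19 and 0.06. Each of these 5 genes was called at an adjusted p of 0.0105 to 0.0158 (edgeR).

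Of the 34 genes lower in translation efficiency, 30 were called higher in RNA, and the footprint libraries of the groups overlapped for 23. Pet117, an assembly factor of cytochrome c oxidase, was lowest of the 10 named for the lowest values at -2.12 ± 0.47 (log2, SE, adjusted p = 0.0229, edgeR), with RNA of 12.5, 12.4 and 15.5 CPM in HrasG12V shEif2b5 and 3.81, 6.09 and 1.93 CPM in HrasG12V shScram, from no more than 20 reads in any HrasG12V shScram library. Bok, a BCL-2 family member that promotes cell death, was the 1 lower gene called in at least 10 of the 12 fits. Its RNA stood at 113, 71.1 and 109 CPM in HrasG12V shEif2b5, against 50, 53.1 and 47.7 CPM in HrasG12V shScram, with 78.2, 68.2 and 71.0 CPM in WT shScram. Bok footprints were 9.84, 8.91 and 10.2 CPM in HrasG12V shEif2b5 and 12.5, 12.3 and 11.6 CPM in HrasG12V shScram. Neither pair of groups overlapped, but the footprint difference was -0.33 on the log2 scale with an unadjusted p of 0.135 (edgeR). In WT shScram the Bok footprints were 8.63, 11.3 and 9.5 CPM. Bok translation efficiency was lower by -1.29 ± 0.25 (SE, adjusted p = 0.0158, edgeR).

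The other genes of the 10 lowest have varied roles. Fadd, the adaptor of death receptors, stood at -1.24, and its RNA at 29.5, 29.3 and 24.8 CPM in HrasG12V shEif2b5 and 11.6, 14.4 and 10.3 CPM in HrasG12V shScram. Pawr, a pro-apoptotic WT1 interactor, stood at -1.22, Pdf, a mitochondrial peptide deformylase, at -1.14, Banf1, which binds DNA and the nuclear envelope, at -1.13, and Upf3a, of the nonsense-mediated decay machinery, at -1.11. Ttc19, which serves respiratory complex III, stood at -1.48 and Tacc1, a coiled-coil protein that binds microtubule factors, at -1.33. Ttc19 also had lower footprints at an unadjusted p of 0.0132, with 8.43, 9.57 and 9.77 CPM in HrasG12V shEif2b5 and 12.2, 13.4 and 15.2 CPM in HrasG12V shScram. For Pawr and Upf3a, HrasG12V shScram RNA library 2 departed from libraries 1 and 3: Upf3a had 97.8, 81.0 and 124 CPM in HrasG12V shEif2b5, against 38.4, 73.0 and 35.3 CPM in HrasG12V shScram.

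C1qtnf6, a secreted C1q and TNF related protein, was the only called gene with an unadjusted footprint p under 0.05 and an unadjusted RNA p over 0.05. Footprints of the gene were 0.803, 2.00 and 0.444 CPM in HrasG12V shEif2b5, against 4.23, 2.18 and 5.82 CPM in HrasG12V shScram, with 4.45, 2.49 and 3.75 CPM in WT shScram. These are 4, 9 and 2 reads in HrasG12V shEif2b5 and 19, 8 and 26 reads in HrasG12V shScram. Translation efficiency was lower by -2.56 ± 0.65 (log2, SE, adjusted p = 0.035, edgeR), and it was called in 3 of the 12 fits that left out 1 library.

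None of the eIF2 pathway genes tested was called; with 2.12% called over all genes, a count of 0 in lists this short is near the background. Of the 12 eIF2B and eIF2 subunit genes, 0 were called, and their median translation efficiency difference was 0.36 (footprints -0.02, RNA -0.42), against 0.02 without HrasG12V shScram RNA libraries 1 and 3. Eif2s1, the alpha subunit of eIF2 that stress kinases phosphorylate, stood at 0.57 (adjusted p = 0.116) and Eif2b1, the regulatory alpha subunit of eIF2B, at 0.69 (adjusted p = 0.132, both edgeR). Of 8 eIF2 kinase and phosphatase genes 0 were called (median 0.19), with Eif2ak2, the double-stranded RNA kinase PKR, at 0.81 and Eif2ak1, the heme-regulated kinase HRI, at 0.55. Of 10 tested mRNAs known to respond to eIF2 through upstream reading frames, 0 were called (median -0.11), with Gadd45g at -1.14 (adjusted p = 0.0715) and Eprs, the glutamyl-prolyl-tRNA synthetase, at 0.46.

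Atf4, the transcription factor at the centre of the integrated stress response, did not differ beyond the spread. Its footprints stood at 45.2, 63.5 and 44.9 CPM in HrasG12V shEif2b5, against 49.2, 51.8 and 41.8 CPM in HrasG12V shScram, with 16.1, 17.9 and 32.7 CPM in WT shScram. Atf4 RNA was 231, 274 and 256 CPM in HrasG12V shEif2b5 and 269, 195 and 231 CPM in HrasG12V shScram. Both pairs overlapped, and the translation efficiency difference was -0.03 ± 0.26 (log2, SE, adjusted p = 0.972, edgeR). Of 31 tested ATF4 target genes 0 were called and 0 had an unadjusted p under 0.05, against 2057 of all 10793 genes (median -0.03). Cebpb stood at -0.81 (adjusted p = 0.308) and Nupr1 at 0.69 (adjusted p = 0.333).

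Eif2b5 itself did not give a clear check of the shRNA at this level. Eif2b5 RNA was 134, 128 and 143 CPM in HrasG12V shEif2b5, against 126, 387 and 144 CPM in HrasG12V shScram, with 158, 178 and 158 CPM in WT shScram. Footprints of Eif2b5 were 82.5, 78.4 and 95.3 CPM in HrasG12V shEif2b5, against 91.7, 93.0 and 102 CPM in HrasG12V shScram, with 102, 105 and 102 CPM in WT shScram. The RNA difference between the groups lay in HrasG12V shScram RNA library 2 alone. Translation efficiency differed by 0.50 ± 0.41 (log2, SE, adjusted p = 0.539, edgeR), by -0.17 (adjusted p = 0.571) without that library, and by 1.35 (adjusted p = 0.00287) where that library stood alone for its group and was assumed to vary like the other groups. The labels of the groups are thus not checked by the Eif2b5 level. When HrasG12V shScram RNA library 2 stood alone, the 2 genes called were Eif2b5 and S100a11. S100a11, a calcium-binding protein of keratinocytes, had 215, 205 and 206 CPM of RNA in HrasG12V shEif2b5 and 440, 531 and 286 CPM in HrasG12V shScram, with overlapping footprints and a translation efficiency difference of 1.00 ± 0.24 in the full fit (adjusted p = 0.0282, edgeR).

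Hras counts over coding sequence carry no allele and so do not separate HrasG12V from the wild-type gene. Hras footprints stood at 69.3, 109 and 76.8 CPM in HrasG12V shEif2b5 and 81.7, 74.7 and 79.0 CPM in HrasG12V shScram, and its translation efficiency differed by -0.24 ± 0.23 (log2, SE, adjusted p = 0.593, edgeR). Fbxo32, an F-box protein of SCF ubiquitin ligases, had footprints of 17.7, 16.0 and 9.33 CPM in HrasG12V shEif2b5 and 20.9, 16.1 and 19.2 CPM in HrasG12V shScram. The RNA of Fbxo32 was 8.12, 11.7 and 7.02 CPM in HrasG12V shEif2b5 and 5.9, 7.19 and 8.6 CPM in HrasG12V shScram. Both overlapped, and its difference of -0.72 ± 0.40 missed the threshold (adjusted p = 0.334, edgeR). Of 20 tested SCF and F-box genes 0 were called (median 0.22), against 2.12% of all genes.

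Among the longer lists were the subunits of oxidative phosphorylation. Of 75 tested nuclear OXPHOS genes, 8 were called higher and 0 lower (1.81% and 0.315% of all genes), and the list's median was 0.30 (footprints -0.05, RNA -0.29), against 0.07 without HrasG12V shScram RNA libraries 1 and 3. Ndufa4, a subunit of cytochrome c oxidase, had 16.2, 20.2 and 13.6 CPM of RNA in HrasG12V shEif2b5, against 53.7, 52.6 and 50.9 CPM in HrasG12V shScram, with 17.7, 23.2 and 19.5 CPM in WT shScram. Footprints of Ndufa4 were 203, 201 and 230 CPM in HrasG12V shEif2b5 and 217, 240 and 203 CPM in HrasG12V shScram. All 3 HrasG12V shScram RNA libraries were high, footprints overlapped, and translation efficiency was higher by 1.58 ± 0.30 (log2, SE, adjusted p = 0.0135, edgeR). Cox7a2, also of cytochrome c oxidase, was higher by 0.93, Cox7a2l, a factor of respiratory supercomplexes, by 1.13, and Atp5l, of ATP synthase, by 1.22 (adjusted p = 0.0179 for each, edgeR). Atp5g1, Atp5j, Uqcrb and Uqcrc2, named after their values were seen, were the other 4, at 0.89 to 1.06. Ndufa4 was called in 11 of the 12 fits that left out 1 library. Cox7a2 and Cox7a2l were called in 7, Atp5l in 6, Uqcrc2 in 3, and Atp5g1, Atp5j and Uqcrb in 2 each. With offsets for coding GC and length, 6 of the 75 were called.

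In the proteasome list, 5 of 36 tested subunits were higher and 0 lower, against 1.81% and 0.315% of all genes (median 0.27, footprints -0.02, RNA -0.30, and 0.16 without HrasG12V shScram RNA libraries 1 and 3). Psma2, an alpha ring subunit of the core, had 50.6, 52.0 and 40.3 CPM of RNA in HrasG12V shEif2b5 and 102, 84.1 and 127 CPM in HrasG12V shScram. Footprints of Psma2 were 277, 254 and 328 CPM in HrasG12V shEif2b5 and 323, 288 and 307 CPM in HrasG12V shScram. The RNA groups were separate, the footprints were not, and translation efficiency was higher by 1.03 ± 0.22 (log2, SE, adjusted p = 0.0179, edgeR). Psma3, Psma4, Psmb2 and Psmd14, the last a deubiquitinase of the lid named after its values were seen, were higher by 0.78 to 1.07. Psma2 was called in 7 of the 12 fits that left out 1 library. Psma3 and Psmb2 were called in 5, Psma4 in 4 and Psmd14 in 1. With offsets for coding GC and length, 2 of the 36 were called. Of the 77 mitochondrial ribosomal protein genes 3 were higher, Mrps17 by 1.26, Mrpl27 by 0.89 and Mrpl22 between them, with a list median of 0.07.

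Of 80 tested cytosolic ribosomal protein genes, Rpl39 was called higher and Rpl41 and Rps23 lower, against 1.81% and 0.315% of all genes, and the median was -0.06. Rpl41 had 1610, 961 and 1300 CPM of RNA in HrasG12V shEif2b5 and 449, 722 and 385 CPM in HrasG12V shScram, with footprints of 394, 255 and 363 CPM in HrasG12V shEif2b5 and 401, 485 and 367 CPM in HrasG12V shScram. Rpl39 had the opposite RNA pattern, with 179, 182 and 174 CPM in HrasG12V shEif2b5 and 559, 295 and 420 CPM in HrasG12V shScram. Translation efficiency stood at -1.63 ± 0.32 for Rpl41 (adjusted p = 0.0179), -0.86 ± 0.22 for Rps23 (adjusted p = 0.0391) and 1.17 ± 0.25 for Rpl39 (log2, SE, adjusted p = 0.0208, all edgeR). Rpl39 and Rpl41 have very short coding regions, and ribosomal protein genes have processed pseudogenes, which makes their counts uncertain. Of 35 other initiation factors 0 were called (median 0.04), against 1 with offsets for coding GC and length. Eif1, which guards start codon choice, stood at 0.80 (adjusted p = 0.0842) and Mcts1, a reinitiation factor, at 1.03 (adjusted p = 0.0777, both edgeR). Of 11 elongation and termination factors, 22 cytosolic and 17 mitochondrial tRNA synthetases 0 were called, with medians of -0.06, 0.10 and -0.13.

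For other metabolic and secretory lists, the shares over all genes were again 1.81% called higher and 0.315% called lower. Of 25 cholesterol synthesis genes 2 were higher, the desaturase Sc5d by 1.30 ± 0.29 and the isomerase Ebp by 1.06 ± 0.26 (log2, SE). The list median was 0.29, against 0.17 without HrasG12V shScram RNA libraries 1 and 3. With offsets for coding GC and length, 0 of the 25 were called. Sc5d was called in 5 and Ebp in 4 of the 12 fits that left out 1 library. Of 24 ER chaperone and unfolded protein response genes 1 was higher, Dnajb9, a co-chaperone of BiP, by 1.55 ± 0.41 (adjusted p = 0.0441, edgeR). Its RNA rested on 4, 8 and 4 reads in HrasG12V shEif2b5 and 38, 7 and 37 reads in HrasG12V shScram. Of 16 glycolysis genes 0 were called (median 0.13). Of 56 replication-dependent histone genes 3 were higher, Hist1h4j, Hist1h3d and Hist1h2bj, with the uncertainty over shared reads given above.

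**Figure D3:**
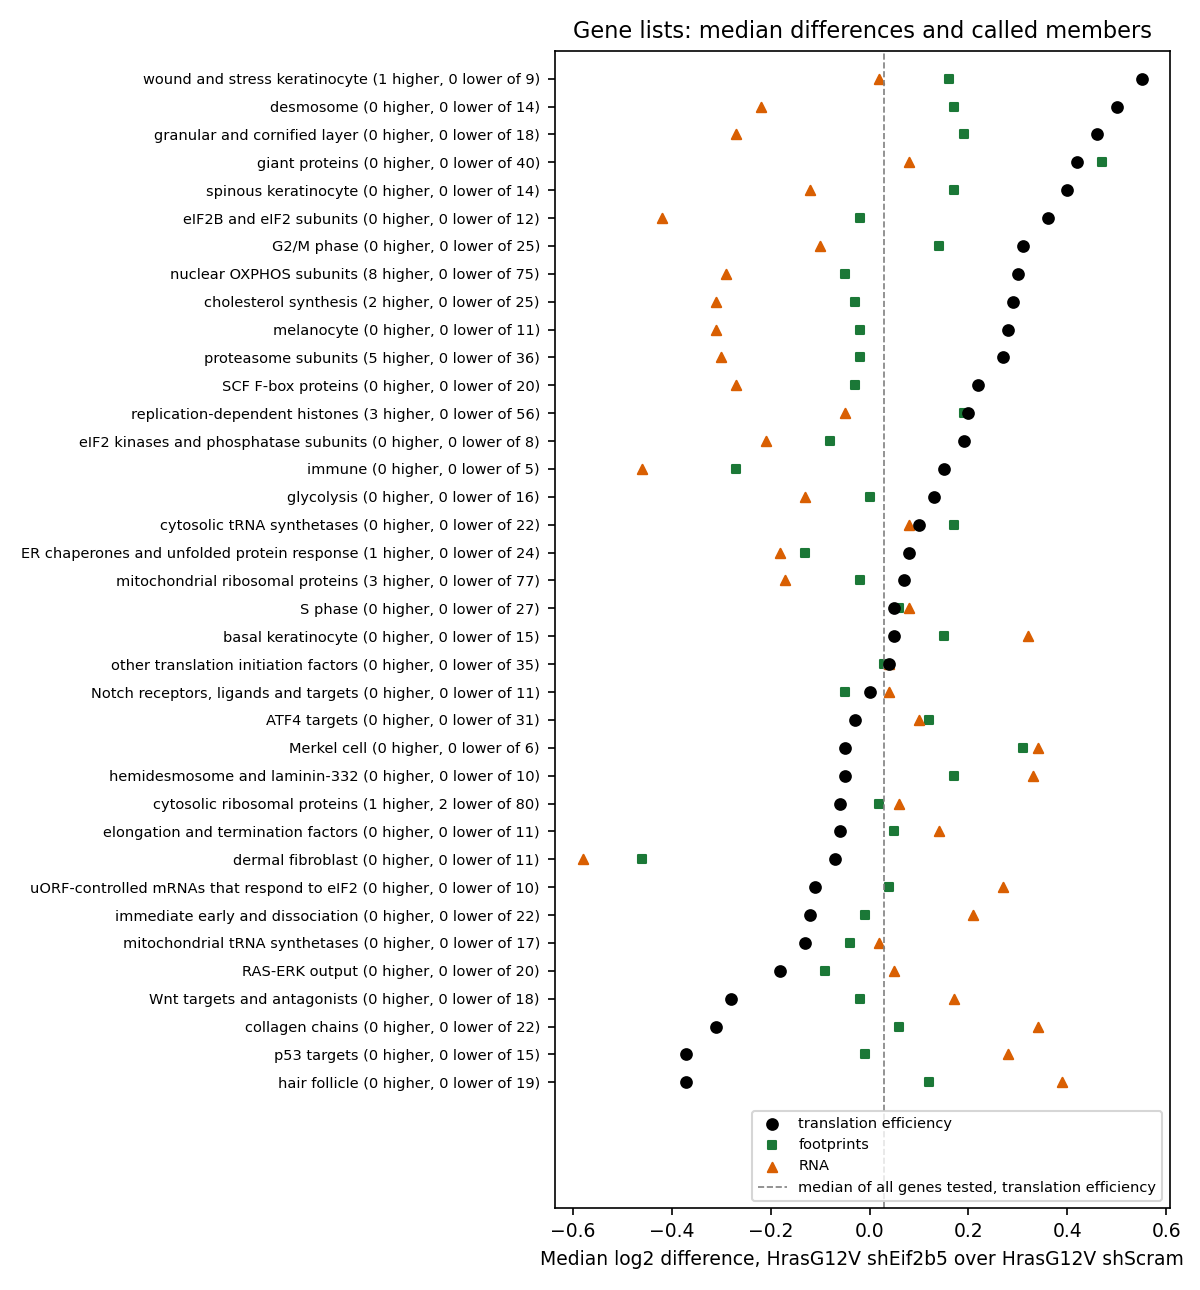
Median log2 difference, HrasG12V shEif2b5 over HrasG12V shScram, in translation efficiency (black), footprints (green) and RNA (orange) for each gene list with at least 5 tested members, with called members in parentheses and the median of all tested genes as a dashed line. Most lists with a black point away from 0 have an orange point on the other side of 0; for giant proteins the footprint median of 0.47 stands on the same side.

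For lists of keratinocyte state and signalling, each of 9 to 27 genes, a count of 0 or 1 lies near the 2.12% called over all genes. Stfa3 was the 1 called gene of 9 wound and stress keratinocyte genes. None was called of 15 basal, 14 spinous, 18 granular and cornified, 14 desmosome, 10 hemidesmosome and 22 collagen genes. Their medians were 0.05, 0.40, 0.46, 0.50, -0.05 and -0.31. Without HrasG12V shScram RNA libraries 1 and 3 these were 0.03, 0.27, 0.5, 0.3, 0.03 and -0.14. The translation efficiency of Krt5, the basal keratin, differed by -0.35 ± 0.25 and that of Trp63, the basal transcription factor p63, by 0.29 ± 0.23 (log2, SE). Dsg1a, a desmosomal cadherin of the upper layers, stood at 0.81 (adjusted p = 0.0948, edgeR) and Krtdap at 0.86 (adjusted p = 0.116, edgeR). Of 20 RAS-ERK output genes, 22 immediate early, 18 Wnt, 11 Notch, 15 p53, 27 S phase, 25 G2/M and 19 hair follicle genes, 0 were called. The medians were -0.18, -0.12, -0.28, 0.00, -0.37, 0.05, 0.31 and -0.37. In the same order they were 0, 0.09, -0.1, -0.2, -0.04, -0.01, 0.1 and -0.11 without HrasG12V shScram RNA libraries 1 and 3. Spred1, an inhibitor of RAS signalling, stood at -0.84 (adjusted p = 0.0779) and Sp5, a Wnt target, at -1.46 (adjusted p = 0.0863, both edgeR). Shh, the hedgehog ligand, stood at -0.83 (adjusted p = 0.0848) and Cdk1, the mitotic kinase, at 0.74 (adjusted p = 0.111, both edgeR). With offsets for coding GC and length, Spred1 was called at -1.12 (adjusted p = 0.02, edgeR).

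Markers of layers above the basal one were abundant, although the labels name basal cells. Summed over their lists, basal markers gave 17300 to 19300 CPM of RNA in HrasG12V shEif2b5 and 11300 to 15000 CPM in HrasG12V shScram, and markers of the suprabasal spinous layer gave 48300 to 60900 CPM in HrasG12V shEif2b5 and 36000 to 64900 CPM in HrasG12V shScram. In footprints the spinous markers spread further, over 24700 to 73100 CPM in HrasG12V shEif2b5 and 33700 to 41200 CPM in HrasG12V shScram. Krt1, a spinous keratin named after its values were seen, had footprints of 14200, 40800 and 42500 CPM in HrasG12V shEif2b5 and 23000, 18100 and 18300 CPM in HrasG12V shScram, so footprint library 1 of HrasG12V shEif2b5 stood apart here too, and the part of this in the spinous median was not tested. In bulk samples, fewer cells of a type and less RNA per cell cannot be told apart. Summed RNA markers of immune cells stood at 25.1 to 35.8 CPM in HrasG12V shEif2b5 and 31.5 to 41.3 CPM in HrasG12V shScram, those of endothelium at 13.1 to 15.1 and 16 to 20.4 CPM, those of erythroid cells, with 6 of 9 genes at 0, at 4.24 to 9.36 and 7.19 to 24.5 CPM, those of skeletal muscle at 6.64 to 14 and 6.09 to 29.7 CPM, and those of Merkel cells at 46 to 54.6 and 30.4 to 45.7 CPM. Dermal fibroblast markers gave 1620 to 1750 CPM in HrasG12V shEif2b5 and 1560 to 2220 CPM in HrasG12V shScram, and melanocyte markers 557 to 718 and 718 to 870 CPM. Of 11 melanocyte, 11 dermal fibroblast, 6 Merkel cell, 5 immune, 2 muscle, 1 endothelial and 1 erythroid gene tested, 0 were called. Over all genes 2.12% were called, and the part of these cells in the results was not tested.

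Genes of giant proteins had a footprint median above that of all genes, with an RNA median near 0. Of 40 tested, the footprint difference was above 0 for 36, against 50.8% of all tested genes, and 21 had higher footprints at an unadjusted p under 0.05, against 2.94% of all tested genes, though none passed the adjustment for footprints or for translation efficiency. Their medians were 0.47 in footprints, 0.08 in RNA and 0.42 in translation efficiency (0.31 without HrasG12V shScram RNA libraries 1 and 3, and 0.26 with offsets for coding GC and length). In the decile of all genes with the longest coding sequence, the footprint median was 0.16. Summed over the list, footprints stood at 6230, 11400 and 11900 CPM in HrasG12V shEif2b5, against 5420, 6310 and 7580 CPM in HrasG12V shScram, with 5110, 6320 and 5590 CPM in WT shScram. Libraries 2 and 3 of HrasG12V shEif2b5 were thus high and library 1 lay inside the HrasG12V shScram range. Macf1, a cytoskeletal crosslinker, had footprints of 109, 244 and 322 CPM in HrasG12V shEif2b5 and 120, 113 and 137 CPM in HrasG12V shScram. Birc6, a very large inhibitor of apoptosis, and Vps13a, a lipid transfer protein, were nearest to a call in translation efficiency, at 0.74 ± 0.20 (adjusted p = 0.0515) and 0.84 ± 0.24 (log2, SE, adjusted p = 0.0555, both edgeR). The same library stood apart for stress keratins, which like Macf1 are named after their values were seen: Krt16 footprints were 102, 559 and 545 CPM in HrasG12V shEif2b5 and 133, 133 and 103 CPM in HrasG12V shScram. Leaving out HrasG12V shEif2b5 footprint library 1 gave 31 footprint calls, 30 of them higher, among them Krt16, Krt6a, Dsp, Macf1, Dync1h1 and Fn1, in place of 0.

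The called genes differed in base composition from the rest. Coding sequence GC had a median of 45.7% in the 195 genes called higher and 57.8% in the 34 called lower, against 53% in all 10793, and the median coding length was 981, 819 and 1446 bases. From each end of the named sets, 3 genes are shown by the middle 90 bases of their coding sequence: the lowest in GC of the 10 highest and the highest in GC of the 10 lowest, chosen for that contrast, from GENCODE vM21 on mm10, with G and C in capitals.
Immp1l (coding GC 40.1%, chr2:105904638-105965558, plus strand, coding bases 205 to 294): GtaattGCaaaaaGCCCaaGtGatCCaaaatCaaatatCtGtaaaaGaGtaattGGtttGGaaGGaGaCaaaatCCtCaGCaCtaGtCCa
Lamp2 (coding GC 42.4%, chrX:38401357-38456454, minus strand, coding bases 580 to 669): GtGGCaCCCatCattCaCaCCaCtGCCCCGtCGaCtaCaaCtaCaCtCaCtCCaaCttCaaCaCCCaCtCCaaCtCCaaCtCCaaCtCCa
Tspan6 (coding GC 43.6%, chrX:133891068-133898429, minus strand, coding bases 325 to 414): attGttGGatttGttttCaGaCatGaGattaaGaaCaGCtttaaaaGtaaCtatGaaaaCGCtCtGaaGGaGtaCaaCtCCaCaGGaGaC
Pdf (coding GC 65.4%, chr8:107044698-107048614, minus strand, coding bases 304 to 393): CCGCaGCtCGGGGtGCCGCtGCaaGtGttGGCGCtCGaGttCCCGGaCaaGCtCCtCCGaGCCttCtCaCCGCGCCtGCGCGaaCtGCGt
Bok (coding GC 62.9%, chr1:93685660-93695764, plus strand, coding bases 277 to 366): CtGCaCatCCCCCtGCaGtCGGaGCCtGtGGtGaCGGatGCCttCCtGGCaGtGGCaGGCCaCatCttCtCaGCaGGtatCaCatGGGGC
Pawr (coding GC 60.2%, chr10:108332121-108414240, plus strand, coding bases 457 to 546): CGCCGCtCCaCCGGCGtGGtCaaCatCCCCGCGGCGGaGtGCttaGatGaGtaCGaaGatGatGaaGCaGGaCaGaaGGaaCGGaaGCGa

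Of these stretches, Pdf held 62 G or C bases of 90, Bok 56 and Pawr 54, against 33 in Immp1l and in Tspan6. The stretch of Lamp2 held 48, a higher share than its coding sequence as a whole. Not every gene followed the contrast: Hist1h4j, the highest of the 10 highest, had a coding GC of 66.03%, above each of the 10 lowest.

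The composition of the called genes followed a graded difference over all genes. In the lowest decile of genes by coding GC (35.24 to 44.46%), the median log2 difference was 0.45 in translation efficiency, -0.07 in footprints and -0.51 in RNA, and 71 genes were called higher and 0 lower. In the highest decile (60.38 to 75.38%), the medians were -0.36, 0.05 and 0.41, and 5 genes were called higher and 10 lower. The medians of the deciles between lay in order or were tied, while the counts of called genes did not fall or rise at each step. Across genes, Spearman's rho with coding GC was 0.551 for the RNA difference, 0.154 for the footprint difference and -0.478 for translation efficiency; this describes 10740 genes that share the same libraries and are not independent.

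The same grading could be read library by library. In the lowest decile by GC, the RNA of HrasG12V shEif2b5 libraries departed from the mean of the 9 RNA libraries by a median of -0.24, -0.04 and -0.26 (log2), and that of HrasG12V shScram libraries by 0.32, 0.05 and 0.48. In the highest decile, the departures were 0.16, 0.06 and 0.31 in HrasG12V shEif2b5 and -0.35, 0.09 and -0.42 in HrasG12V shScram. HrasG12V shScram libraries 1 and 3 thus lay at 1 end, HrasG12V shEif2b5 libraries 1 and 3 at the other, and library 2 of each group near the middle. A fit with offsets for coding GC and length called 93 genes (0.862%), 66 higher (0.612%) and 27 lower (0.25%), of which 72 were among the 229; the medians of the genes called higher and lower were then 0.78 and -0.95. Lamp2 was called with these offsets (adjusted p = 0.00282), as were Pex13 and Ndufa4, at 0.0161 and 0.029, while Bok at 0.057 and Psma3 at 0.0863 were not (edgeR).

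**Figure D4:**
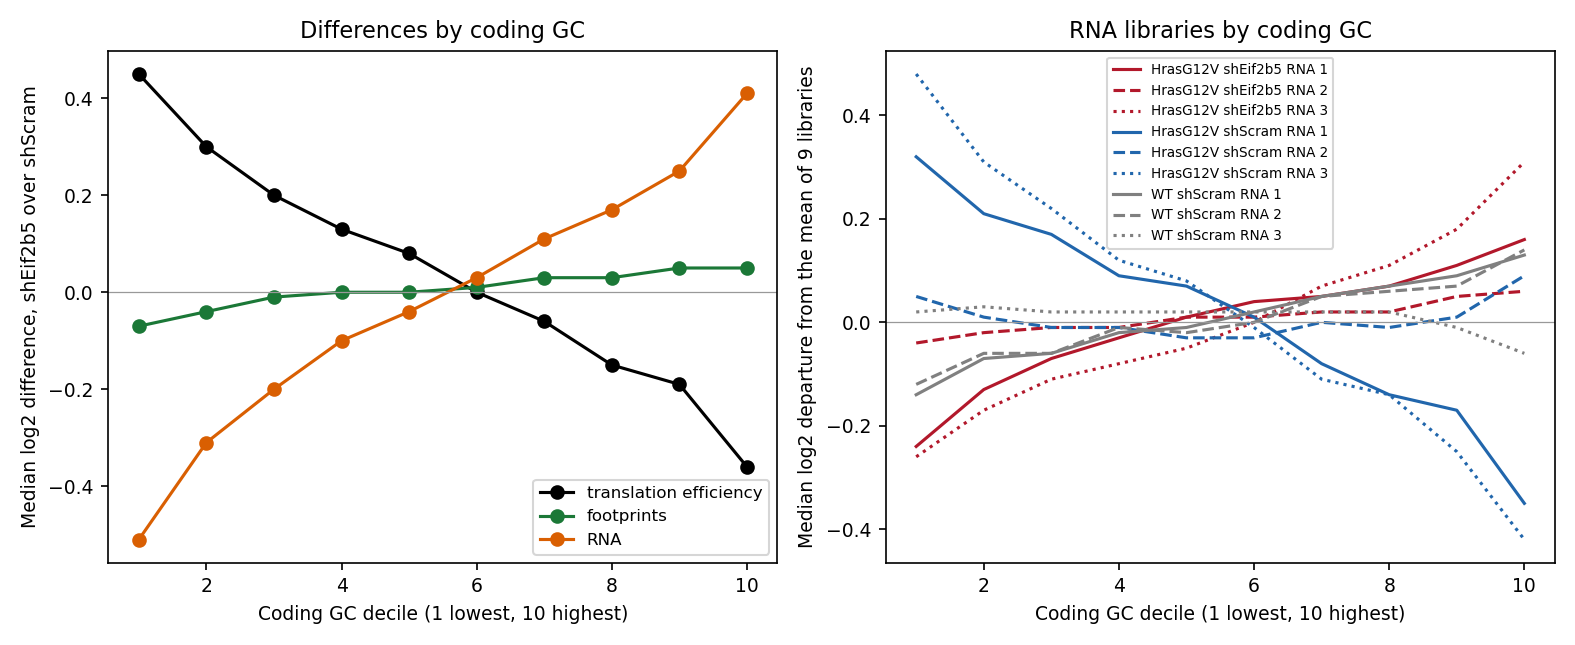
Left, median log2 difference, HrasG12V shEif2b5 over HrasG12V shScram, by decile of coding GC in translation efficiency, footprints and RNA; right, median log2 departure of each RNA library from the mean of the 9 RNA libraries. Translation efficiency runs from 0.45 to -0.36 and RNA from -0.51 to 0.41 while footprints stay within 0.07 of 0, and HrasG12V shScram RNA libraries 1 and 3 cross the others.

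The WT shScram libraries give a further level to set both groups against. In HrasG12V shEif2b5 over WT shScram, 0 of 10793 genes were called in translation efficiency (0%), with 633 at an unadjusted p under 0.05, and in HrasG12V shScram over WT shScram 126 were (1.17%), 16 higher (0.148%) and 110 lower (1.02%). These comparisons share libraries with the main one, so their values are given side by side only. The 195 genes called higher had a median of 0.28 in HrasG12V shEif2b5 over WT shScram and -0.78 in HrasG12V shScram over WT shScram, and the 34 called lower had -0.33 and 0.75. For Ndufa4 the values were -0.01 and -1.58, for Nup35 -0.02 and -1.67, and for Lamp2 0.75 and -0.88. HrasG12V and WT embryos also differ in strain, so strain and genotype cannot be told apart in either comparison.

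The number of calls depended on single libraries. Leaving out HrasG12V shScram RNA library 2 gave 1348 calls, 757 higher and 591 lower, including each of the 229, whereas leaving out HrasG12V shEif2b5 RNA library 3 gave 7, HrasG12V shEif2b5 footprint library 3 gave 25, HrasG12V shScram RNA library 3 gave 26 and HrasG12V shScram footprint library 3 gave 34. Leaving out HrasG12V shScram RNA library 1 gave 63, HrasG12V shScram footprint libraries 1 and 2 gave 67 and 53, and HrasG12V shEif2b5 RNA library 1 gave 48. The remaining fits without 1 library gave 190 to 263.

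**Figure D5:**
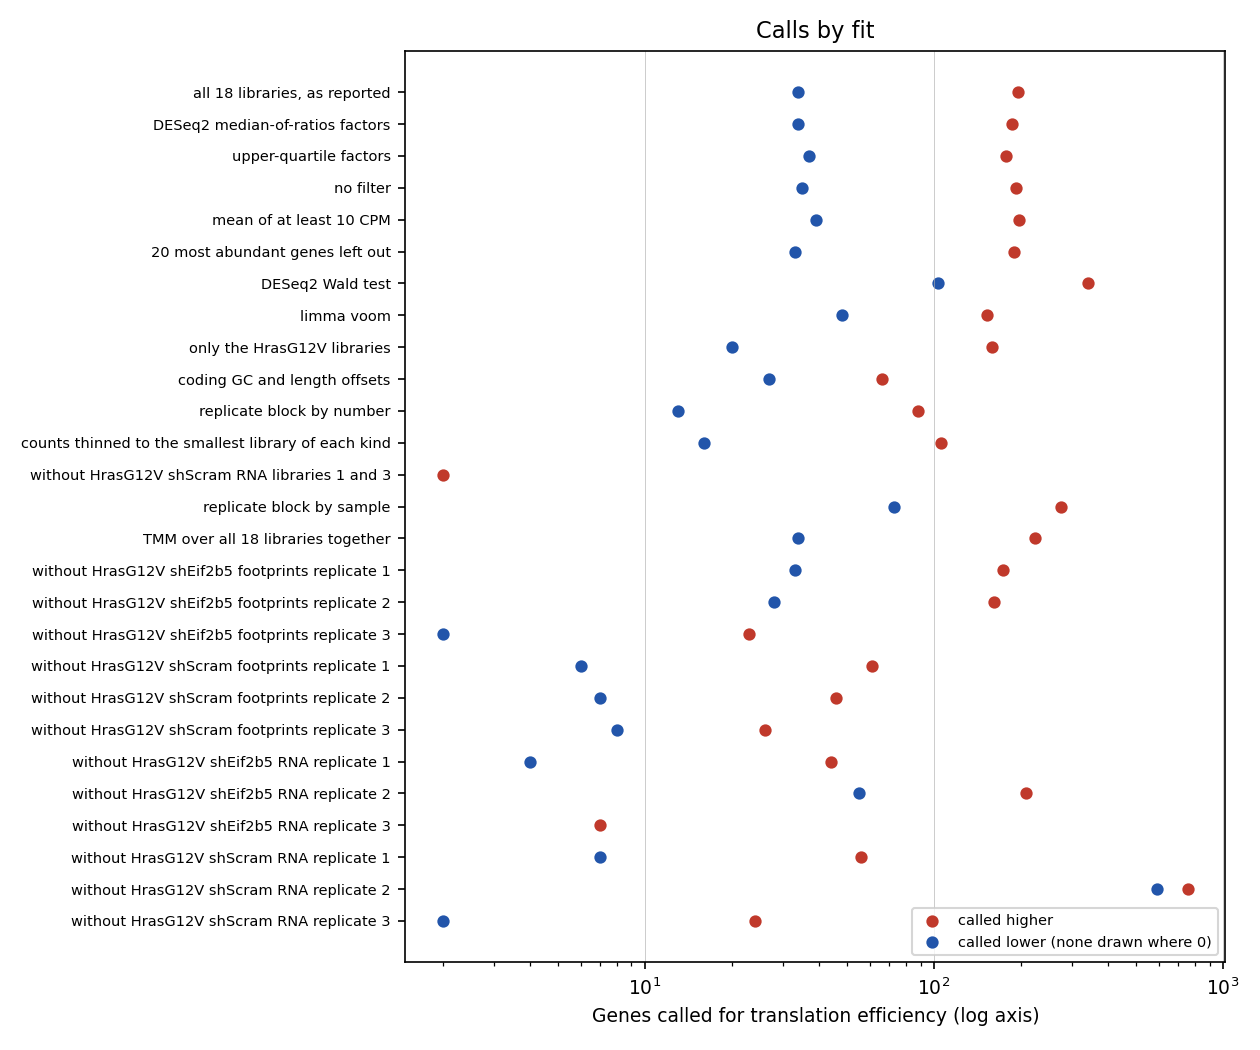
Genes called higher (red) and lower (blue) in translation efficiency on a log axis, for the fit of all 18 libraries and for the other fits, except the one that joins composition offsets with the removal of HrasG12V shScram RNA libraries 1 and 3; a point at 0 is not drawn. Counts stay near 195 higher and 34 lower across scalings and filters. With 1 library left out they range from 7 in all, without HrasG12V shEif2b5 RNA library 3, to 1348, without HrasG12V shScram RNA library 2, and with HrasG12V shScram RNA libraries 1 and 3 both left out there are 2.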

How the data were processed

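Ribosome footprints and RNA were measured in 18 libraries. The authors deposited read counts, not normalized, for the coding sequence of each gene symbol; Bowtie, TopHat2 and HTSeq with mm10 are named in the submitters' processing notes, and versions and strand setting are not given in the sources used here. All per-sample columns were used. Of the symbols, 99.3% matched GENCODE vM21, and 27 date-like names were kept as written. Between libraries of a group, chi-square over its degrees of freedom was 3.52 to 22.4, so none was a copy.

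The counts were analysed with edgeR 4.0.16 in R 4.3.3 (glmQLFit, robust; glmQLFTest). Genes passed filterByExpr (minimum count 10, total 15) in both kinds of library, and TMM was applied within each kind. Translation efficiency is the interaction of condition and kind over 18 libraries; footprints and RNA were also fitted alone over 9. CPM values are after TMM. The fit was tested on simulated data with changes set in genes of at least 10 CPM. It recovered 98% of 100 changes of 4-fold and 54% of 100 changes of 2-fold, with 8 false among 160 calls. Many 2-fold changes could thus be missed. The libraries of each kind were drawn from a shared profile, so the uneven HrasG12V shScram RNA libraries were not simulated. An exact test of 3 against 3 libraries cannot go below 0.1.

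Named genes were Eif2b5, Hras, Fbxo32 and Atf4, the 10 highest and 10 lowest called genes with at least 10 CPM in both kinds (no predicted models), called genes carried by footprints, and up to 4 called or 2 uncalled members of each list. The lists and rules were chosen with earlier results of these data known. Alternatives changed scaling, filter, test (DESeq2 1.42.0, limma 3.58.1 voom), libraries, composition offsets and replicate blocks; thinned counts, and composition offsets without HrasG12V shScram RNA libraries 1 and 3, were added after seeing the data. Counting error is only part of the spread, and the p-values cover no step before the deposited counts.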

Additional observations from a re-analysis of the deposited data

How the results depend on the processing

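The 229 translation efficiency calls were within 1.5 times under DESeq2 factors (221), upper-quartile factors (215), no filter (228), a filter at 10 CPM (236), the 20 most abundant genes left out (222), limma voom (201), HrasG12V libraries only (179) and TMM over all libraries (257). The DESeq2 Wald test gave 445 (342 higher, 103 lower), composition offsets 93, thinned counts 122, and leaving out HrasG12V shScram RNA libraries 1 and 3 gave 2, also with composition offsets. Fits without 1 library gave 7 to 1348. Footprint calls were 0, but 1 with no filter and with the DESeq2 Wald test (Fn1 in both), and 0 to 31 without 1 library. RNA calls were 1442, against 872 with HrasG12V libraries only, 617 with composition offsets (314 higher, 303 lower, against 581 and 861), 17 without HrasG12V shScram RNA libraries 1 and 3 and 10 when both were done, and 197 to 3154 without 1 library. The causes were not tested.

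The replicate numbers were not taken as pairs. Correlations were computed on log2 CPM after the mean of its group was subtracted from each gene. On that scale same-number footprint and RNA libraries of a condition correlated at 0.0157 to 0.279, not all above 0.1. Yet 8 of 9 footprint libraries correlated best with their own number. A replicate block by number gave 101 translation efficiency calls, 1 footprint call (Fn1) and 1225 RNA calls; a replicate block by sample gave 348 translation efficiency calls. Of 3081 recomputed values of named genes 2582 kept direction and side of the threshold, 412 lost a call and 48 gained one. A further 39 uncalled values changed sign, and 0 called values reversed. The 3081 values take in genes not called in the main fit, which had no call to lose. They also take in genes picked because they stayed called in most fits without 1 library. The share kept is thus no measure of how stable the calls were. Of 1077 recomputed list medians 1061 moved by less than 1 SD. That SD is the spread of the list's median log2 CPM between libraries of a group, combined over the HrasG12V groups. It takes in the uneven HrasG12V shScram RNA libraries that some of the fits left out. A move of less than 1 SD is thus no measure of stability on its own. A mean of under 20 RNA reads in the lower group stood behind 24 of the 229 calls, and genes under the count filter were not tested.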
